A study of Drosophila melanogaster with 8 samples.

Results

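Complexes III, IV and V of the mitochondrial respiratory chain and the electron carrier cytochrome c were followed through their nuclear-encoded genes. Members were all genes of the deposited table whose FlyBase symbol starts with UQCR, COX, ATPsyn or Cyt-c, which gave 44 of 17471 genes. Complex III had 11 of them, complex IV 16, complex V 15 and cytochrome c 2. Of the 44, 17 carry the name of another subunit with an L, or are Cyt-c-d, and are called duplicated copies here; the other 27 are called main copies. The symbol rule leaves out 6 nuclear subunits that have names of their own (RFeSP, ox, levy, cype, blw and sun) and the subunits encoded in mitochondrial DNA, which are given separately.

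RNA was sequenced from the fat body of Drosophila melanogaster larvae, the tissue that stores fat and glycogen and senses nutrients. The 8 libraries form 4 groups of 2. Wild-type OreR larvae were kept on food or starved for 4 h or for 16 h, and CPSF5H11/CPSF5H11 larvae, homozygous for a mutant allele of the gene for a pre-mRNA cleavage factor subunit, were starved for 16 h. All larvae were raised at the same standard temperature, and fed mutant larvae were not analysed here, so the mutant was compared with wild type at 16 h of starvation and, after the values were seen, with fed wild type. The labels do not say that the libraries of a group came from separate animals, so p-values cover the spread between the sequenced samples and nothing more, and that spread may be technical. A further limit is that lower RNA in a dissected tissue can mean fewer cells of a type or less RNA per cell, and bulk libraries cannot tell these apart.

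In the respiratory chain, complex III passes electrons from ubiquinol to cytochrome c, a small heme protein of the intermembrane space. Complex IV, cytochrome c oxidase, passes them on to oxygen. Both complexes pump protons, and complex V, the ATP synthase, lets the protons flow back to make ATP. The catalytic core of complex IV and parts of complexes III and V are encoded in mitochondrial DNA, and the remaining subunits are made from nuclear genes. Flies carry extra copies of many of the nuclear genes, and many such copies are known to be expressed mainly in testis.

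Levels are in scaled TPM: the TPM of the deposited table, a share of all transcripts corrected for transcript length, after division by a library factor. Values are listed as replicate 1 and replicate 2 of each group. Log2 fold changes are differences of log2(scaled TPM + 1), which understate changes of low genes, and a gene was called at an adjusted p under 0.05 in limma. The read depth of a library cannot be read from TPM and is not known.

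The libraries differed in their RNA make-up. Nuclear ribosomal RNA took 4.58% to 6.79% of TPM in fed and mutant libraries, 12.6% and 14.0% at 4 h, and 48.8% and 31.1% at 16 h. The members together took 2.12% and 1.47% of the TPM of nuclear protein-coding genes in fed wild type, 0.468% and 0.277% at 4 h and 0.367% and 0.280% at 16 h of starvation, and 1.70% and 1.15% in the mutant, so their lower share in starved wild type also stood without ribosomal RNA in the sum. Cpsf5 RNA itself was at 12.0 and 10.9 in fed wild type, 6.47 and 3.62 at 4 h and 5.06 and 4.20 at 16 h of starvation, and 3.60 and 3.01 in the mutant, and the mutant was not called lower than wild type at 16 h (log2 fold change -0.39, limma adjusted p = 0.256). The level of RNA from the gene is therefore no check of the genotype labels. Fat body markers were not uniform: Lsp2, a larval storage protein, was at 2373 and 5703 in fed wild type, 23728 and 24705 at 16 h against 8.64 and 16.7 in the mutant, while apolpp, the lipoprotein precursor, was between 1159 and 2335 in all 8 libraries. Of the 8 markers, 3 were called higher and Apoltp lower at each time, and 5 were lower and Apoltp and Lsp1gamma higher in the mutant than in 16 h wild type. Of all genes tested, 21.1% were called higher and 26.6% lower at 4 h, and 21.6% and 27.7% at 16 h. In the mutant against 16 h wild type, 12.1% of all genes were called lower and 21.4% higher. Apoltp, a lipid transfer particle protein, was lower in starved wild type and higher in the mutant, as the main copies were, with 85.8 and 73.8 in fed wild type, 10.2 and 6.64 at 4 h, 22.6 and 15.2 at 16 h, and in the mutant 157.8 and 128.6, and Lsp1gamma was at most 0.109 in starved wild type and at 131.9 and 204.4 in the mutant. Salivary glue genes summed to between 12658 and 38453 in the 4 starved wild-type libraries and to at most 46.5 in the other 4, so these genes too separated starved wild type from the other groups. The part of these differences in the results on the respiratory genes was not tested.

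The main copies were among the more abundant messages of the fed fat body. By mean level in fed wild type, 26 of the 27 ranked among the first 500 of 13882 nuclear protein-coding genes, and the lowest ranked 539. After 4 h of starvation all 27 were lower than in fed wild type, and all 27 were lower after 16 h. In the starved mutant 26 of the 27 were higher than in wild type starved as long. The duplicated copies were at low levels throughout, with means over the 8 libraries of at most 3.22 against at least 39.1 for the main copies, and 8 of the 17 passed the filter of a mean of 1.

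**Figure D1:**
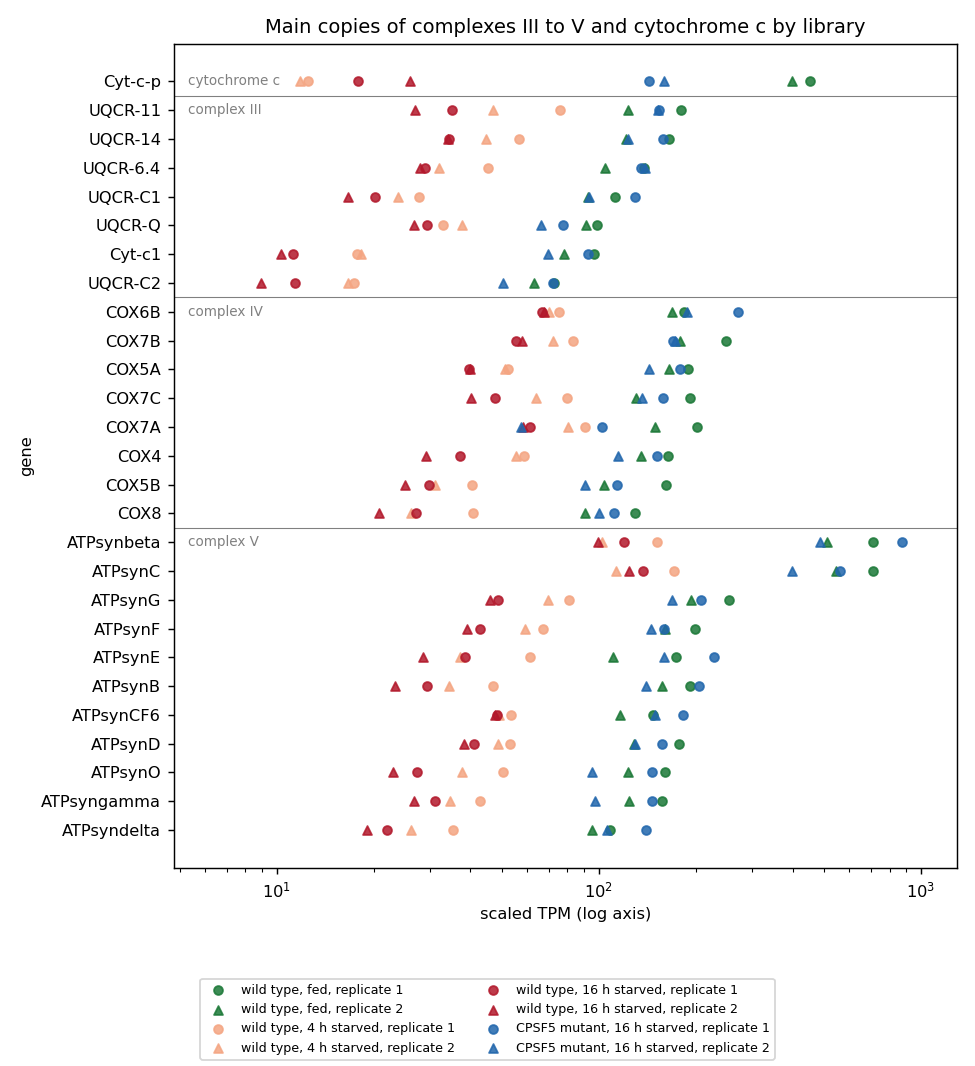
Level of each of the 27 main copies in each of the 8 libraries, in scaled TPM on a log axis, with genes grouped by complex; circles are replicate 1 and triangles replicate 2. For every gene the starved wild-type libraries lie to the left of the fed ones, Cyt-c-p lies farthest left at 4 h relative to fed, and the mutant libraries lie near the fed ones except for Cyt-c-p and COX7A.

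Cytochrome c showed the largest change of all members. Cyt-c-p (FBgn0284248, 2L:16719932-16722644, plus strand, BDGP6), the cytochrome c used in most fly tissues, was at 453.7 and 398.0 in fed wild type, 12.5 and 11.9 after 4 h, 17.9 and 25.9 after 16 h, and 142.8 and 159.2 in the starved mutant. The 4 groups did not overlap: fed was highest, the mutant came next, and both starved wild-type groups were far below. Its mean at 4 h was 2.86% of the fed mean, a 35.0-fold difference. The log2 fold change was -5.02 ± 0.23 (SE) at 4 h (limma adjusted p = 4.22e-05) and -4.24 ± 0.23 at 16 h (limma adjusted p = 7.45e-05). Counted from the largest fall, Cyt-c-p ranked 17 among the 8332 genes tested at 4 h and 41 at 16 h. The mutant was higher than wild type at 16 h by 2.75 ± 0.23 on the log2 scale (limma adjusted p = 0.000993) and lower than fed wild type by a log2 fold change of -1.49 ± 0.23 (limma adjusted p = 0.00345), with a mean of 35.5% of fed. Its mean was higher at 16 h than at 4 h, unlike that of the other 26 main copies, but this difference was not called (log2 fold change 0.78, limma adjusted p = 0.211).

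Cyt-c-d (FBgn0086907), the second cytochrome c gene, which is required in fly spermatogenesis, lies 296 bases upstream of Cyt-c-p on the same strand. It was at 1.47 and 0 in fed wild type, 1.83 and 0.0450 at 4 h and 5.89 and 0.280 at 16 h of starvation, and 0.0152 and 0 in the mutant. Only the replicate 1 libraries of the 3 wild-type groups held more than 1. It was called in none of the 5 comparisons (limma adjusted p from 0.228 to 0.933). The counting tool is not given in the sources used here, so how reads that fit both copies of a pair were assigned is unknown, and the values of all duplicated copies carry that uncertainty.

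Complex III lost transcripts of its core and of its small subunits alike. All 7 main copies were lower at 4 h, when 26.6% of all 8332 genes tested were called lower, and the median log2 fold change of the 7 was -1.63 against -0.03 over all genes. Cyt-c1 (FBgn0035600, 3L:5360211-5362798), the heme subunit that hands electrons to cytochrome c, was at 96.7 and 78.2 in fed wild type, 17.7 and 18.3 at 4 h and 11.3 and 10.3 at 16 h of starvation, and 93.0 and 69.6 in the mutant. It had the largest fall outside cytochrome c at 16 h, with a log2 fold change of -2.90 ± 0.21 (limma adjusted p = 0.000189), and the largest rise of all members in the mutant over wild type, 2.79 ± 0.21 (limma adjusted p = 0.000738). Its mutant and fed libraries overlapped. UQCR-C2, a core protein of the complex on the matrix side, was at 72.6 and 63.0 in fed wild type, 17.4 and 16.7 at 4 h and 11.4 and 8.96 at 16 h of starvation, and 72.3 and 50.5 in the mutant. The other core protein, UQCR-C1, was at 25.0% of its fed mean at 4 h and 18.0% at 16 h.

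Among the complex III members, the 3 most abundant transcripts encode small accessory subunits. These kept a larger share of their fed level than Cyt-c1 and the core proteins. The small subunit ox, outside the symbol rule, had a higher mean level over all libraries (115.9, against 99.3 for UQCR-11). UQCR-11 (FBgn0260008) was at 180.0 and 123.5 in fed wild type, 75.7 and 46.9 at 4 h and 35.0 and 27.0 at 16 h of starvation, and 154.0 and 152.5 in the mutant. UQCR-14 was at 164.9 and 121.9, then 56.4 and 44.8, then 34.4 and 34.0, and 158.7 and 123.4 in the mutant. UQCR-6.4 was at 138.4 and 104.5, then 45.5 and 32.0, then 28.9 and 27.9, and 135.0 and 139.6 in the mutant. In all 3 the starved wild-type libraries were below every fed library, and mutant and fed libraries overlapped. Among the main copies of complex III, UQCR-Q kept the largest share of its fed mean at 16 h, 29.6%, and Cyt-c1 the smallest, 12.3%. The difference between core and small subunits was not tested.

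Complex IV, whose 8 main copies encode accessory subunits around a mitochondrially encoded core, was lower in all 8 at 4 h and at 16 h. At 16 h, 27.7% of all genes tested were called lower, and the median log2 fold change of the 8 was -2.0 against 0.01 over all genes. Among these main copies, COX6B (FBgn0031066, X:19740537-19744335), a subunit on the intermembrane side, had the highest mean over the 8 libraries. COX7B and COX5A were higher in fed wild type, and among the main copies COX6B kept the largest share of its fed mean at 16 h. It was at 184.7 and 169.4 in fed wild type, 75.2 and 70.1 at 4 h and 66.6 and 67.7 at 16 h of starvation, and 271.2 and 188.4 in the mutant. Both mutant libraries were above both fed libraries for COX6B, but the difference was not called (log2 fold change 0.35 ± 0.23, limma adjusted p = 0.268). COX7B was at 248.4 and 178.7 in fed wild type, 83.5 and 72.2 at 4 h and 55.2 and 57.7 at 16 h of starvation, and 170.4 and 172.5 in the mutant. COX5A (FBgn0019624, 3R:11819359-11820299), a subunit on the matrix side, was at 189.8 and 165.4, then 52.3 and 51.1, then 39.6 and 39.9, and 178.9 and 143.1 in the mutant. For COX7B the mutant libraries were just under the fed ones, and for COX5A the groups overlapped.

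COX7A (FBgn0040529, 3R:8339944-8341043, minus strand), a small membrane subunit of complex IV, stood apart from the other main copies in the mutant. It was at 201.4 and 149.2 in fed wild type, 90.7 and 80.3 at 4 h and 61.3 and 58.4 at 16 h of starvation, and 102.4 and 57.2 in the mutant. The mutant range enclosed both wild-type 16 h libraries and lay below both fed libraries. COX7A was lower in the mutant than in fed wild type (log2 fold change -1.17 ± 0.32, limma adjusted p = 0.0269), and was the only main copy not called between mutant and wild type at 16 h (0.35 ± 0.32, limma adjusted p = 0.432). Its share of the summed complex IV members, duplicated copies included, was 13.6% and 13.3% in fed wild type and 17.0% and 17.8% at 4 h. The share was 15.5% and 17.1% at 16 h of starvation, and 8.10% and 5.64% in the mutant. The mutant libraries thus held the lowest shares on a measure that no scaling enters. The calls for this gene depended on single libraries: without fed replicate 1 the difference from fed was -0.95 (limma adjusted p = 0.141), without fed replicate 2 -1.38 (0.0633) and without mutant replicate 2 -0.75 (0.088). Its fall at 4 h (log2 fold change -1.01, limma adjusted p = 0.0412) was likewise lost without either fed library, either 4 h library or either wild-type 16 h library, with limma adjusted p from 0.0669 to 0.198, and its fall at 16 h without fed replicate 1 (limma adjusted p = 0.0632).

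By the summed level of its members, without mitochondrially encoded subunits, complex V was the most abundant of the complexes. Its 11 main copies were all lower at both times of starvation, when 26.6% (4 h) and 27.7% (16 h) of all genes tested were called lower. ATPsynbeta (FBgn0010217, 4:1031484-1034917), the catalytic subunit, was at 712.3 and 513.4 in fed wild type, 151.5 and 102.3 at 4 h and 120.0 and 99.5 at 16 h of starvation, and 873.9 and 484.9 in the mutant. ATPsynC (FBgn0039830, 3R:31216145-31219630), which forms the ring that turns in the membrane, was at 712.9 and 544.7, then 171.2 and 113.3, then 137.8 and 124.2, and 560.9 and 399.0 in the mutant. Mutant and fed libraries overlapped for both genes, and both had most of their fall by 4 h: ATPsynbeta was at 20.7% of its fed mean at 4 h and 17.9% at 16 h, and ATPsynC at 22.6% and 20.8%. The log2 fold changes at 4 h were -2.27 ± 0.37 for ATPsynbeta and -2.15 ± 0.31 for ATPsynC (limma adjusted p = 0.00362 and 0.00205).

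The stalk subunits of complex V, which hold the catalytic head in place or turn within it, followed the same order. ATPsynB, of the outer stalk, was at 192.1 and 156.8 in fed wild type, 46.9 and 34.2 at 4 h and 29.4 and 23.3 at 16 h of starvation, and 204.5 and 139.8 in the mutant. Among the main copies of complex V, its fall at 16 h was the largest (log2 fold change -2.68 ± 0.29, limma adjusted p = 0.000703), as was its rise in the mutant over wild type (2.65 ± 0.29, limma adjusted p = 0.00197). ATPsynO and ATPsynD of the outer stalk were at 17.7% and 25.8% of their fed means at 16 h, and ATPsyngamma and ATPsyndelta of the central stalk at 20.6% and 20.2%. ATPsynCF6, another outer stalk subunit, kept the most, 36.3%. ATPsynG, one of the small membrane subunits, was at 253.3 and 194.0 in fed wild type, 80.7 and 69.7 at 4 h and 48.6 and 46.0 at 16 h of starvation, and 207.8 and 168.6 in the mutant, and again the starved wild-type libraries were below all others.

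**Figure D2:**
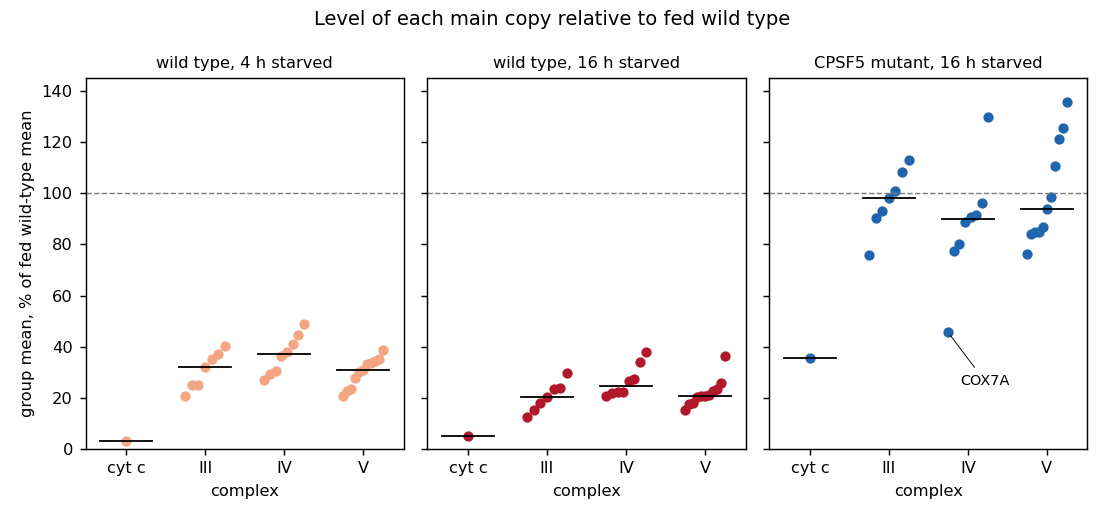
Group mean of each main copy as a percentage of its mean in fed wild type, by complex; each point is a gene, the black line is the median of the complex, and the dashed line marks the fed level. Medians at 16 h are 20.4% for complex III, 24.4% for complex IV and 20.8% for complex V, Cyt-c-p is at 5.14%, and in the mutant the medians are 98.3%, 89.8% and 93.8%, with Cyt-c-p at 35.5% and COX7A at 45.5%.

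Compared with fed wild type, then, the counts were 27 main copies and no duplicated copy called lower at 4 h, and the same 27 and none at 16 h. Only 8 of the 17 copies were tested, with SEs of 0.63 to 1.16 against 0.19 to 0.37 for main copies. Their fed means of 0.115 to 2.60 leave little room for a fall in log2(scaled TPM + 1). The counts therefore cannot set copies against main copies. No member was called higher at either time by limma (0 of 35 tested, and 0 also at an unadjusted p under 0.05), when 21.1% of all genes tested were called higher at 4 h and 21.6% at 16 h. The percentage of the fed mean left at 4 h had a median of 31.9% over complex III, 37.3% over complex IV and 31.0% over complex V. From 4 h to 16 h the means of 26 of the 27 main copies were lower, 22 of them with libraries that did not overlap, against 22.6% of all genes tested that were lower without overlap, and the median log2 fold change was -0.46. No member was called in either direction in this comparison (limma lowest adjusted p = 0.211), in which 0.036% of all genes were called lower and 0% higher. At an unadjusted p under 0.05 in limma, 8 of 35 members were lower and 1 higher, beside 1337 of all 8332 genes in either direction.

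The smallest two-sided p that an exact permutation of 2 against 2 libraries allows is 0.3333, so each call rests on the spread that limma pools over groups and genes. Leaving out the 3 wild-type replicate 1 libraries, in which testis markers were higher, leaves 1 residual degree of freedom and was chosen after the values were seen. The median log2 fold change of the 27 main copies was then -1.68 at 4 h, -2.05 at 16 h and 2.12 for mutant over wild type, close to the -1.63, -2.15 and 2.0 of all libraries, while the calls dropped to 3, 10 and 5 main copies, and the calls over all genes dropped to 12.1% lower at 4 h, 10.9% lower at 16 h and 3.48% higher in the mutant.

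In the mutant starved for 16 h, 26 main copies were higher than in wild type starved for 16 h, and no member was lower (limma, 0 of 35 also at an unadjusted p under 0.05). Over all genes tested 21.4% were called higher and 12.1% lower in this comparison. The median log2 fold change was 2.28 over the 7 main copies of complex III, 1.80 over the 8 of complex IV and 2.01 over the 11 of complex V, against 0.09 over all genes. In all 26 both mutant libraries were above both wild-type libraries, as they were for 41.2% of all genes tested.

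Set against fed wild type, the mutant libraries overlapped the fed ones for 20 of the 27 main copies, lay below them for 5 and above them for 2. Over all genes tested, 37.2% lay below without overlap and 42.5% above. Cyt-c-p and COX7A were called lower and no main copy higher, when 22.4% of all genes tested were called lower and 23% higher. The median percentage of the fed mean was 91.4% over the 27, with ATPsynE the highest at 135.8% and Cyt-c-p the lowest at 35.5%. A difference that was not called is not shown to be absent: the SE of these log2 fold changes ranged from 0.19 to 0.37. Genotype and feeding both differ in this comparison, so their parts cannot be told apart.

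Sums over the members show how the complexes stood to each other. Complex V summed to 3001 and 2268 scaled TPM in fed wild type, 819 and 611 at 4 h and 602 and 516 at 16 h of starvation, and 3011 and 2077 in the mutant. Complex IV summed to 1481 and 1124, then 534 and 450, then 397 and 342, and 1264 and 1014 in the mutant. Its main copies alone summed to 1472 and 1123, then 521 and 450, then 364 and 339, and 1259 and 1004 in the mutant. Complex III summed to 868 and 677, then 278 and 220, then 180 and 153, and 828 and 702 in the mutant. In each sum the 4 starved wild-type libraries were below the other 4, and replicate 1 was above replicate 2 in every group.

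Ratios within a library do not depend on scaling, and they are given without a test. The ratio of complex IV to complex V was 0.493 and 0.496 in fed wild type, 0.653 and 0.736 at 4 h and 0.659 and 0.663 at 16 h of starvation, and 0.420 and 0.488 in the mutant. Starved wild type was thus above fed in all 4 libraries. The mutant was below fed in both, though its 0.488 was close to the 0.493 of fed. COX7A made up 8.10% and 5.64% of summed complex IV in the mutant, against 13.6% and 13.3% in fed wild type. The part of COX7A in the lower mutant ratio was not tested. The ratio of complex III to complex V was 0.289 and 0.299 in fed wild type, 0.340 and 0.360 at 4 h and 0.299 and 0.297 at 16 h of starvation, and 0.275 and 0.338 in the mutant, so only the 4 h libraries lay outside the mutant range. Cyt-c-p against complex IV was at 0.306 and 0.354 in fed wild type, 0.0233 and 0.0263 at 4 h and 0.0451 and 0.0758 at 16 h of starvation, and 0.113 and 0.157 in the mutant. No group overlapped another on this ratio, and neither the 16 h wild type nor the mutant reached the fed ratio.

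**Figure D3:**
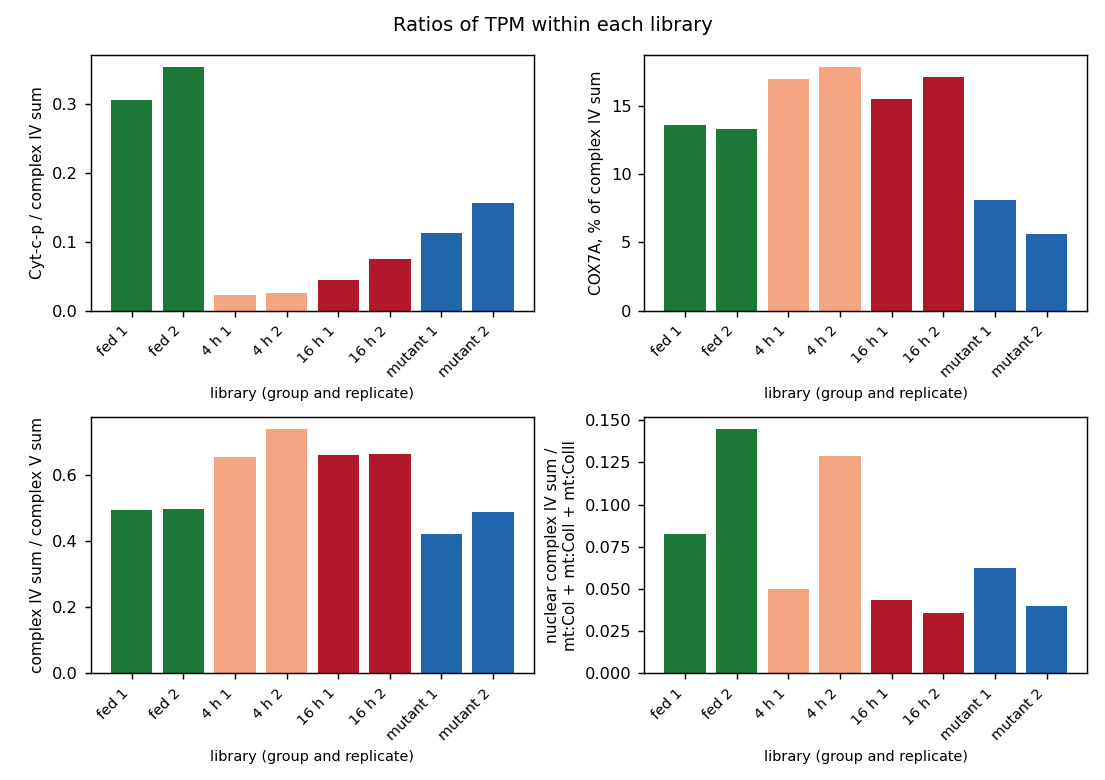
Ratios computed within each library, with 1 bar per library (replicates 1 and 2 of each group): Cyt-c-p to summed complex IV, COX7A as a percentage of summed complex IV, summed complex IV to summed complex V, and summed nuclear complex IV to the mitochondrially encoded mt:CoI, mt:CoII and mt:CoIII. The Cyt-c-p ratio falls from 0.306 and 0.354 in fed wild type to 0.0233 and 0.0263 at 4 h, the COX7A share is lowest in the mutant, the ratio of complex IV to V is highest in starved wild type, and the nuclear to mitochondrial ratio differs between the replicates of a group at fed and at 4 h.

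The mitochondrially encoded subunits of the same complexes did not give the same counts. Of the 6 (mt:Cyt-b, mt:CoI, mt:CoII, mt:CoIII, mt:ATPase6 and mt:ATPase8), none was called at 4 h or 16 h by limma, and none had an unadjusted p under 0.05, with SEs of 0.58 to 0.74 that were larger than those of any main copy. All 6 log2 fold changes were nevertheless below 0 at both times, with medians of -0.96 and -0.37. All 6 were above 0 in the mutant against 16 h wild type (median 1.46) and against fed (median 1.05). mt:CoI, the catalytic subunit of complex IV, was at 6618 and 2945 in fed wild type, 3956 and 1336 at 4 h and 3460 and 3458 at 16 h of starvation, and 8971 and 10403 in the mutant, so fed and starved wild type overlapped. mt:ATPase6 alone of the 6 was called higher in the mutant than in 16 h wild type (log2 fold change 2.17 ± 0.63, limma adjusted p = 0.043). Of all genes tested, 21.4% were called higher in that comparison, and 26.6% were called lower at 4 h and 27.7% at 16 h. Nuclear complex IV divided by the sum of mt:CoI, mt:CoII and mt:CoIII was 0.0827 and 0.144 in fed wild type, 0.0501 and 0.129 at 4 h and 0.0433 and 0.0360 at 16 h of starvation, and 0.0622 and 0.0399 in the mutant. Fed and 4 h overlapped, and both 16 h wild-type libraries were below both fed libraries. The libraries were made from ribosome-depleted total RNA, and a difference between nuclear and mitochondrial genes in the size of the fall was not tested.

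The nuclear subunits with names of their own were read in the same comparisons. RFeSP (the iron-sulfur protein of complex III), ox (a small subunit of complex III), levy and cype (complex IV), blw (the catalytic alpha subunit of complex V) and sun (its epsilon subunit) were all called lower at 4 h and at 16 h, and all 6 were higher in the mutant than in 16 h wild type. blw, the partner of ATPsynbeta, was at 301.1 and 236.2 in fed wild type, 79.7 and 58.1 at 4 h and 55.5 and 46.8 at 16 h of starvation, and 297.5 and 177.9 in the mutant. ox alone was called lower in the mutant than in fed wild type (log2 fold change -0.75 ± 0.25, limma adjusted p = 0.0491), when 22.4% of all genes tested were. For the other comparisons of this paragraph, 26.6% of all genes were called lower at 4 h and 27.7% at 16 h. In the mutant 21.4% were called higher than in 16 h wild type. Of the 33 tested genes of complex I, the first entry point of electrons, 31 were called lower at each time and 30 higher in the mutant than in wild type, with medians of -1.17, -1.43 and 1.47. All 4 tested genes of complex II, the succinate dehydrogenase, were lower at each time and higher in the mutant, with medians of -0.96, -1.37 and 1.12. The medians of complexes III to V were larger in size than these in every comparison with starved wild type, a difference that was not tested.

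Genes that serve cytochrome c and the synthase were read beside the members. Cchl, the lyase that attaches heme to cytochrome c, was at 56.9 and 53.6 in fed wild type, 5.37 and 5.58 at 4 h and 7.42 and 4.83 at 16 h of starvation, and 14.7 and 12.7 in the mutant. As with Cyt-c-p the fed libraries were highest and the mutant libraries lay between fed and starved wild type, and Cchl was lower in the mutant than in fed wild type (log2 fold change -1.94 ± 0.21, limma adjusted p = 0.000949). Scox, an assembly factor that helps deliver copper to complex IV, was lower at 4 h and 16 h (-1.30 and -1.82) and in the mutant against fed (-1.29), while Surf1, another assembly factor, was lower at 16 h (-0.68 on the log2 scale) and not called at 4 h or in the mutant against fed. sesB, the carrier that exchanges ADP and ATP, was at 751.8 and 560.9 in fed wild type, 77.3 and 37.7 at 4 h and 67.4 and 65.2 at 16 h of starvation, and 365.7 and 286.2 in the mutant. Of the 4 tested carrier and pore genes, sesB, porin and Mpcp2 were lower at both times and higher in the mutant than in wild type, and Ant2, at 0.707 to 4.11, was not called. Of Cchl, Scox and Surf1, 2 were called higher in the mutant than in 16 h wild type. Over all genes tested, 26.6% were called lower at 4 h and 27.7% at 16 h. In the mutant, 21.4% of all genes were called higher than in 16 h wild type and 22.4% lower than in fed wild type.

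Regulators of mitochondrial genes were also read beside the members. Of 8 tested, 6 were called lower at 4 h and at 16 h and ewg, the fly relative of nuclear respiratory factor 1, was called higher at both times, beside 26.6% and 27.7% of all genes called lower. srl, the fly relative of the PGC-1 coactivators, was at 41.2 and 43.0 in fed wild type, 1.71 and 0.854 at 4 h and 2.27 and 2.16 at 16 h of starvation, and 4.18 and 3.28 in the mutant. Its mutant libraries were far below the fed ones (log2 fold change -3.19 ± 0.20, limma adjusted p = 0.000205) and were not called higher than wild type at 16 h (0.55 ± 0.20, limma adjusted p = 0.0846). In the mutant, 3 of the 8 (mtTFB1, Ets97D and PolrMT) were higher than in 16 h wild type, when 21.4% of all genes were. Against fed wild type 5 of the 8 were lower, when 22.4% of all genes were, and ewg was higher.

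The duplicated copies differed between the libraries of each wild-type group. Of the 17, 16 were higher in replicate 1 than in replicate 2 in all 3 wild-type groups, the exception being COX7AL2 at 16 h, and 14 had their highest value in replicate 1 at 16 h. Their sum was 19.7 and 3.20 in fed wild type, 25.1 and 0.443 at 4 h and 62.4 and 5.31 at 16 h of starvation, and 14.2 and 18.6 in the mutant. COX4L reached 9.65 in the 16 h replicate 1 library, the highest value of any copy, against 37.0 for COX4 in the same library. The 25 testis markers, among them betaTub85D and the Mst84D and Mst87F sperm genes, were higher in replicate 1 in all 3 wild-type groups, 25 of 25 each time. Their sum was 49.8 and 3.76 in fed wild type, 82.4 and 12.5 at 4 h and 211 and 18.2 at 16 h of starvation, and 5.99 and 5.16 in the mutant. In replicate 2 at 4 h, 12 of the 25 markers were at 0, as were 7 and 11 in the mutant libraries. The part of testis RNA in the levels of the copies was not tested.

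**Figure D4:**
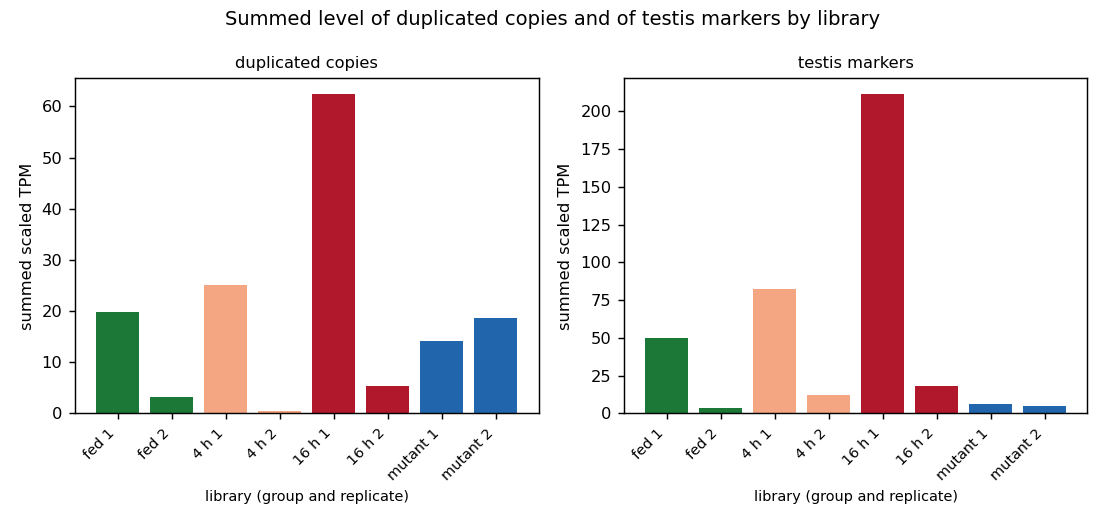
Summed scaled TPM of the 17 duplicated copies (left) and of 25 testis markers (right), with 1 bar per library. Both sums are higher in replicate 1 than in replicate 2 of each wild-type group and peak in replicate 1 at 16 h, at 62.4 and 211; in the mutant the copies sum to 14.2 and 18.6 while the markers sum to 5.99 and 5.16.

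In the mutant libraries, where the testis markers were low, 7 copies were still at 0.5 or more in both libraries: UQCR-11L, UQCR-6.4L, COX4L, COX6AL, COX7CL, ATPsynbetaL and ATPsynepsilonL. UQCR-11L was the highest, at 7.29 and 6.06 in the mutant, against 3.63 and 1.58 in fed wild type, 2.73 and 0.0439 at 4 h, and 3.91 and 0.486 at 16 h. Its mutant libraries were above all others, but it was not called against wild type at 16 h (log2 fold change 1.5 ± 0.77, limma adjusted p = 0.18) or against fed (1.15 ± 0.77, limma adjusted p = 0.272). COX6AL (FBgn0050093, 2R:15944028-15944567), a copy of levy in a single exon, was at 0.211 and 0.0184 in fed wild type, 0.465 and 0.0330 at 4 h and 1.92 and 0.289 at 16 h of starvation, and 1.5 and 6.88 in the mutant. Both mutant libraries were above both fed libraries. Its mean over the 6 wild-type libraries was 0.489, so it passed the filter only through the mutant group, where it is high, and its call against fed (log2 fold change 2.0 ± 0.63, limma adjusted p = 0.0421) is no support for a difference; without the filter the limma adjusted p was 0.0807, and without mutant replicate 2 it was 0.16. The call was also lost without either fed or either 4 h library (limma adjusted p from 0.0593 to 0.161). Midgut markers were highest in the same library, at a sum of 382.8 in mutant replicate 2 against 58.1 in mutant replicate 1.

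Gene structure varied among the copies. Of the 17 copies, 2 (UQCR-14L and COX6AL) have a single exon in every annotated transcript, while none of the 27 main copies does, and the median length of the longest transcript was 587 bases for copies and 746 for main copies. Some pairs were alike: the longest transcript of ATPsynbetaL has 2036 bases and that of ATPsynbeta 2048. Some copies are close neighbours of their partner: 122 bases separate COX5B and COX5BL on 2L, 281 bases COX7C and COX7CL on 2R, and 2625 bases COX7A and COX7AL on 3R. COX7CL was at 2.46 and 0.606 in fed wild type and 5.32 and 1.43 at 16 h, when COX7C was at 192.3 and 130.6 and at 47.7 and 40.0, so fed and 16 h libraries overlapped for the copy and not for its partner. The copies that passed the filter were called in neither direction at 4 h, at 16 h or between mutant and wild type by limma, 0 of 8 also at an unadjusted p under 0.05. With SEs of 0.63 to 1.16 and levels this low, the lack of a call does not show a lack of change.

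Muscle, a tissue rich in respiratory transcripts, is another possible constituent of dissected fat body. Its 14 markers summed to 186.8 and 125.2 in fed wild type, 39.0 and 31.4 at 4 h and 33.9 and 48.3 at 16 h of starvation, and 106.8 and 66.1 in the mutant, an order like that of the members. Of 11 tested, 9 were called lower and Strn-Mlck higher at each time, and 1 was called higher in the mutant than in wild type. Over all genes tested, 26.6% were called lower and 21.1% higher at 4 h, and 27.7% and 21.6% at 16 h. For the mutant against 16 h wild type, 21.4% of all genes were called higher and 12.1% lower. Mhc, muscle myosin heavy chain, was at 10.6 and 10.4 in fed wild type, 1.64 and 0.212 at 4 h and 1.40 and 1.09 at 16 h of starvation, and 8.76 and 3.30 in the mutant; Act88F, the flight muscle actin, was at most 0.383 in all libraries. Midgut markers had a similar order in part: 10 of them summed to 121.4 and 209.7 in fed wild type, 40.6 and 68.1 at 4 h and 42.7 and 38.8 at 16 h of starvation, and 58.1 and 382.8 in the mutant. Of 8 tested, 3 were called lower and Mal-A6 higher at each time, and 7 were higher and Mal-A6 lower in the mutant than in 16 h wild type. Jon65Aiv, a gut protease, was at 52.5 and 100.9 in fed wild type, between 0.118 and 3.39 in the 4 starved wild-type libraries, and at 7.61 and 51.6 in the mutant. The part of muscle and midgut RNA in the differences of the respiratory genes between groups was not tested.

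Few member isoforms were called for a change in share. Of 30 member genes with 2 or more annotated isoforms, 18 had isoforms in the test, 36 isoforms in all. Each isoform was set against the others of its gene, so the 36 are not independent. Their SEs ranged from 0.20 to 2.27 on the log2 scale, so the lack of a call does not show a lack of change. Only COX5A-RC was called, as a larger share of COX5A at 16 h than in fed wild type, in a comparison in which 19.3% of all 5289 isoforms tested were called. Its share was 87.9% and 88.4% in fed wild type, 91.6% and 93.3% at 4 h and 96.9% and 97.6% at 16 h of starvation, and 91.6% and 89.8% in the mutant (log2 ratio to the other isoforms 1.07 ± 0.27, limma adjusted p = 0.0398). The 16 h wild-type libraries were above all others, but the call was lost when any single library was left out. In the other comparisons limma called no member isoform, with 1 of 36 at an unadjusted p under 0.05 for 4 h against fed, 3 for 16 h against 4 h, 4 for mutant against wild type at 16 h and 0 for mutant against fed. Over all isoforms tested, limma called 17.8%, 0%, 19.6% and 20.1% in these comparisons. The shares of all isoforms at an unadjusted p under 0.05 were 31.6%, 9.89%, 35.3% and 35.5%.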

How the data were processed

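Total RNA of larval fat body was extracted with Trizol and made into stranded, ribosome-depleted libraries, per the labels' protocols; STAR 2.5.3 and build BDGP6 were used, per the submitters' processing notes. The authors deposited TPM per gene and per isoform, 1 column per library, without pooling; the quantifying tool, its annotation and its treatment of strand and shared reads are not given in any source used. TPM keep no depth, so no counting interval was computed.

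Of 17471 gene identifiers, 17249 matched an Ensembl release 115 annotation of BDGP6, which gave names and coordinates, 132 were matched by the sum of their isoforms (Cyt-c-p among them) and 90 were unmatched. TPM were divided by median-of-ratios factors over 5393 genes at 1 or more in every library (factors 0.537 to 1.52). Genes with a mean of 1 or more (8332) were tested two-sided in R 4.3.3 with limma 3.58.1, modelling log2(scaled TPM + 1) by group with a variance trend; p-values were adjusted by Benjamini-Hochberg across the genes tested in each comparison, and 4 residual degrees of freedom were moderated by a median of 2.16. Isoforms were tested alike on log2((isoform + 1)/(other isoforms + 1)), for mean shares of 5% to 95% in genes at a mean of 5 TPM or more. The procedure was tested on simulated data.

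The labels carry no replicate numbers; libraries were numbered in accession order, which pairs nothing. The members, gene lists and marker lists were chosen with earlier results of these data known. Values in every library are given for both cytochrome c genes, the 3 most abundant members of each complex, the 4 largest rises and falls among called members of each comparison and members called against the majority; other genes were named after their values were seen. The regulator tam was not found under that symbol. Haemocyte markers summed to 10.4 to 30.2 scaled TPM. Alternatives were other scalings, pseudocounts, no filter, no variance trend and leaving out libraries. Promoter motifs and sequences were not analysed here.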

Additional observations from a re-analysis of the deposited data

How the results depend on the processing

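The fold changes of 45 named members and comparisons were recomputed under 16 alternatives, which gave 664 values with the same direction and call of 720, 53 that lost the call, 1 that gained it and 2 that reversed. Of the 53, 31 came from leaving out the 3 wild-type libraries higher in testis markers, chosen after the values were seen. Counts of members were then 3 lower at 4 h, 10 lower at 16 h, 6 higher in the mutant than wild type, and 0 lower and 3 higher in the mutant than fed. Leaving out 1 library gave 23 to 27 members lower at 4 h, 1 to 2 lower and 0 to 1 higher in the mutant than fed, 0 member isoforms for 16 h against fed and 0 to 2 for mutant against wild type. The 1 member higher in the mutant than fed (COX6AL) went to 0 under quantile normalization, a pseudocount of 5 and no filter, and a pseudocount of 0.1 gave 1 member isoform for mutant against wild type. The fold change of COX7A between mutant and wild type at 16 h was -0.008418 under quantile normalization, -0.0638 to 0.7659 with 1 library left out, and 1.24 (limma adjusted p = 0.0478) with no scaling; the cause was not tested.

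Without scaling, all genes had a median log2 fold change of -0.53 (4 h), -0.82 (16 h) and 0.77 (mutant over wild type), with 36.2% of genes called lower and 9.55% higher at 4 h, and 48.9% and 6.23% at 16 h; the main copies were then at medians of -2.28, -3.27 and 2.88. With rescaling over protein-coding genes those medians of all genes were -0.37, -0.18 and 0.17. All 27 main copies were called lower at both times under each scaling except quantile normalization (26 at 4 h).

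Without the most abundant member of each complex, the mean sums were 620.9 (fed), 188 (4 h), 135.6 (16 h) and 611.5 (mutant) for complex III, 419.6 (4 h), 301.9 (16 h) and 909.3 (mutant) for complex IV, and 2021 (fed), 448.8 (16 h) and 1864 (mutant) for complex V. Mean ratios moved beyond 1 SD to 0.3081 (fed), 0.3221 (4 h) and 0.3021 (16 h) for III to V, 0.5553 (fed) and 0.6718 (16 h) for IV to V, and 0.3835 (fed), 0.02917 (4 h) and 0.1684 (mutant) for Cyt-c-p to IV. No paired analysis was run because the labels carry no replicate numbers. With 2 libraries a group and unknown depth, values near 0, as in the duplicated copies, rest on the spread between replicates alone.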
